A study of Mus musculus with 44 samples.

Results

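Expression of mRNA was compared between NCoR knockout (NKO) and wild-type (WT) mouse bone marrow-derived cells that had received RANKL for 12 h. The comparison took 4 of the 44 RNA-seq libraries of the series, 2 per genotype, chosen by their genotype and treatment labels, and 13407 of the 24940 genes listed in the count table had enough counts to be tested. Both genotypes carried NCoR flox/flox alleles. NKO cells also carried LysMCre, in which Cre recombinase is expressed from the Lyz2 locus in myeloid cells, whereas WT cells had no Cre, so an effect of Cre itself cannot be told apart from the loss of NCoR. The strain was C57BL/6 and the mice were young adults. The sample records describe bone marrow-derived macrophages, while the library names say Osteoclast. The methods place the 12 h of RANKL in macrophage cultures grown in M-CSF, and describe a longer osteoclast culture separately, for ChIP-seq. Neither the records nor the methods used here say whether replicates came from separate mice, so p-values measure only spread between libraries. That spread was estimated from all 24 libraries of the NCoR experiment, which were fitted together. NKO and WT cells under vehicle for 6 h (2 libraries each, the same alleles) served as the second condition, and their libraries carried a date stamp 536 days after that of the RANKL libraries.

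NCoR, encoded by Ncor1, is a scaffold protein that holds the histone deacetylase HDAC3 and is best known for keeping target genes of nuclear receptors such as LXR silent in the absence of ligand. RANKL binds its receptor RANK on macrophage precursors, recruits TRAF adaptors and, through NF-κB, AP-1 and the master factor NFATc1, turns on the genes with which osteoclasts fuse, attach to bone and dissolve it. Early in this program the precursors still divide, and macrophage genes that hold the program back, such as Irf8 and Bcl6, are normally turned down.

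Gene counts per RANKL library ran from 8.45 M to 12.1 M (M, 1e6), which was 84.3% to 85.0% of the mapped reads. Expression is given below in counts per 1e6 scaled between libraries (CPM), and 3 counts, taken as the limit of detection, corresponded to 0.196 to 0.304 CPM. These floors cover counting error only. Replicates correlated at 0.996 in WT_RANKL and 0.994 in NKO_RANKL on the log2 scale, and both pairs differed by more than sampling noise (chi-square per degree of freedom 1.97 and 4.04).

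Ncor1 (NM_001252313, chromosome 11, 62316426 to 62438515, minus strand, mm10) was 133 and 139 CPM in WT_RANKL and 52.7 and 49.4 CPM in NKO_RANKL, so that both knockout libraries lay below both WT libraries (log2 fold change of NKO over WT -1.41 ± 0.068, adjusted p = 2.32e-25, ± SE throughout, with p-values from the quasi-likelihood F-test of edgeR adjusted by the Benjamini-Hochberg method). Of the 7 genes of the NCoR complex no other was called. Hdac3, the catalytic partner of NCoR, was 38.5 and 41.9 CPM in WT_RANKL and 39.6 and 41.6 CPM in NKO_RANKL and was not called (log2 fold change 0.01 ± 0.084, adjusted p = 0.927). Lyz2, the gene that carries the Cre insertion and encodes lysozyme, was 19373 and 19094 CPM in WT_RANKL and 11394 and 15339.9 CPM in NKO_RANKL (log2 fold change -0.53 ± 0.085, adjusted p = 1.42e-04), which was short of the fold threshold of 1.5, and without NKO_RANKL replicate 2 it was -0.76 and called lower. Calls needed both an adjusted p under 0.05 and a fold change over 1.5. Where libraries of the genotypes are said not to overlap, this only describes the values of the genes named. The share of all genes without such overlap was not counted, and exact permutation of 2 against 2 libraries reaches no p under 0.333. By the rule for calls 6.21% of the genes tested were called higher and 6.99% lower in NKO_RANKL. The median log2 fold change was 0.01 over all genes. These shares are the background for the counts of genes called at RANKL below. On the adjusted p alone, 2301 of the 13407 genes were higher and 2293 lower. At an unadjusted p below 0.05 there were 5679 genes in either direction. Counts below that use those looser rules are to be read against these totals.

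Markers of cell types were summed in each library to check the labels. Macrophage markers summed to 24102 and 23793 CPM in WT_RANKL and to 17210 and 21622 CPM in NKO_RANKL. Most of this sum was Lyz2, the gene of the Cre insertion. Of the 10 macrophage markers, 4 were called higher and none lower, and 9 had a log2 fold change above 0 (median 0.28). Of osteoclast genes, Acp5, Itgb3, Mmp9, Ctsk and Dcstamp were expressed in WT_RANKL at the levels given below. Calcr, the calcitonin receptor, had 0 and 1 counts in WT_RANKL and none in NKO_RANKL, and the receptor gene Oscar had 3 and 1 counts in WT_RANKL and none in NKO_RANKL. Transcripts of granulocyte precursors were present in all 4 libraries, at 1647 and 1521 CPM in WT_RANKL and 2137 and 2117 CPM in NKO_RANKL, against 9.76 to 23.8 CPM in the 16 libraries of the table that were taken at 6 h under the later date stamp. T and NK cell, endothelial and mast cell markers summed to at most 22.97 CPM in any RANKL library and were higher in NKO_RANKL. The dendritic cell sum was lower (78.6 and 85.6 CPM against 50.6 and 62.8 CPM). Of its 7 tested members, however, 1 was called lower and none higher (median log2 fold change -0.02). B cell and erythroid markers summed to at most 9.21 CPM. Monocyte markers summed to 203 and 235 CPM in WT_RANKL and to 346 and 329.6 CPM in NKO_RANKL, and stromal and osteoblast markers to 309 and 268 CPM and to 358 and 459.8 CPM. Of the 12 granulocyte precursor markers, S100a8 (0.63) and Retnlg (1.31) were called higher and none lower, a count that was 4 without WT_RANKL replicate 1 or without NKO_RANKL replicate 1, and 9 were higher on the adjusted p alone. Of 6 monocyte markers 4 were called higher, and of 9 tested stromal markers 4, a count that was 1 without WT_RANKL replicate 2 and 2 without NKO_RANKL replicate 2. The mast cell proteases Tpsb2 and Cma1 and the osteoblast product Bglap were at 0 in all 4 libraries. These sums moved with the genotype, and their part in the results below was not tested. In such bulk samples, fewer cells of a type and less RNA per cell cannot be told apart.

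**Figure D1:**
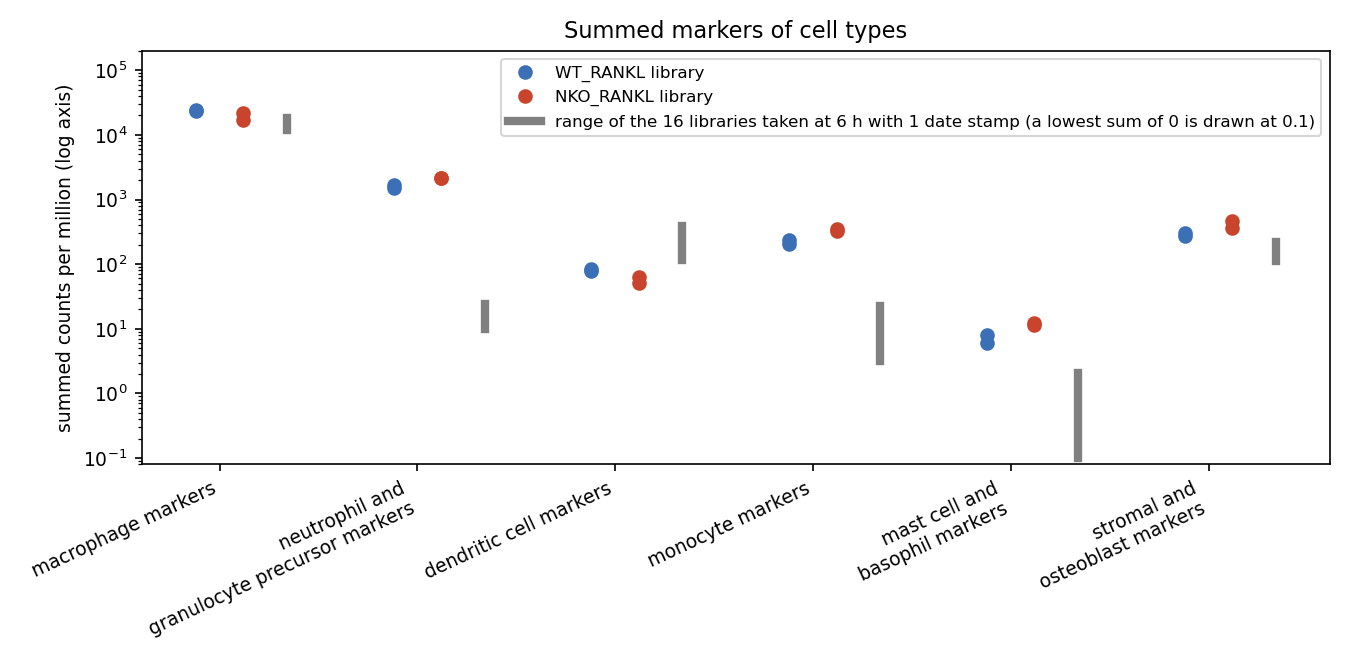
Summed CPM (log axis) of 6 lists of cell type markers in each WT_RANKL (blue) and NKO_RANKL (red) library, beside the range of the 16 libraries taken at 6 h (grey bar). Granulocyte precursor, monocyte, stromal and mast cell markers were higher in the 4 RANKL libraries than in those 16, and higher in NKO_RANKL than in WT_RANKL. Dendritic cell markers were lower in the 4 RANKL libraries than in those 16, and lower in NKO_RANKL than in WT_RANKL.

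Few genes through which cells sense RANKL and M-CSF passed the fold threshold. Tnfrsf11a, which encodes RANK, was 198 and 198 CPM in WT_RANKL and 195 and 212 CPM in NKO_RANKL (log2 fold change 0.04 ± 0.057, adjusted p = 0.672), and Traf6, the adaptor that RANK shares with TLR4, was 40.9 and 38.3 CPM in WT_RANKL and 44.7 and 38.9 CPM in NKO_RANKL (0.08 ± 0.085, adjusted p = 0.513). Csf1r, the M-CSF receptor, was 1330.2 and 1293 CPM in WT_RANKL and 1486 and 1711 CPM in NKO_RANKL, a difference of 0.29 ± 0.052 on the log2 scale that was below the fold threshold (adjusted p = 8.46e-06). Of 34 tested genes of RANK and M-CSF signalling, 2 were called higher and 2 lower, with a median log2 fold change of 0.02, while on the adjusted p alone 10 were higher and 7 lower. The count of higher genes was 1 without WT_RANKL replicate 2 or without NKO_RANKL replicate 2, and that of lower genes was 1 without NKO_RANKL replicate 1. Both lower genes encode TRAF adaptors that are known to hold the non-canonical NF-κB kinase NIK in check. Traf2 fell from 44.1 and 42.6 CPM in WT_RANKL to 23.4 and 20.1 CPM in NKO_RANKL (-0.99 ± 0.09, adjusted p = 4.50e-14), and Traf3 from 88.9 and 86.1 CPM to 54.4 and 60.5 CPM (-0.61 ± 0.077, adjusted p = 2.26e-09), without overlap between the genotypes. The higher genes were weakly expressed. Tnfrsf11b, which encodes osteoprotegerin, the soluble decoy receptor for RANKL, was 1.9 and 2.16 CPM in WT_RANKL and 4.79 and 6.68 CPM in NKO_RANKL (1.49 ± 0.30, adjusted p = 5.61e-05), and the signal regulatory protein gene Sirpb1a, one of a family of near-identical genes whose counts are uncertain, was 3.34 and 2.58 CPM in WT_RANKL and 4.88 and 5.16 CPM in NKO_RANKL (0.76 ± 0.25, adjusted p = 0.0146).

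Transcription factors of osteoclast formation moved in both directions. Of 23 tested, 4 were called higher and 3 lower (median log2 fold change -0.09). Jdp2 (NM_030887, chromosome 12, 85599416 to 85639878, plus strand), an AP-1 family dimer partner that is needed for osteoclast formation in mice, was 89.9 and 78.8 CPM in WT_RANKL and 14.01 and 13.5 CPM in NKO_RANKL, a log2 fold change of -2.62 ± 0.10, adjusted p = 1.72e-29. Nfkb2 was 181 and 176 CPM in WT_RANKL and 63.8 and 74.3 CPM in NKO_RANKL (-1.37 ± 0.063, adjusted p = 1.63e-26), and Relb, its partner in the non-canonical pathway, was 50.9 and 47.4 CPM in WT_RANKL and 29.7 and 33.1 CPM in NKO_RANKL (-0.65 ± 0.086, adjusted p = 7.31e-09). All 3 had both NKO libraries below both WT libraries. Nfatc1, the master factor, was 48.7 and 45.6 CPM in WT_RANKL and 29.8 and 36.4 CPM in NKO_RANKL (-0.51 ± 0.086, adjusted p = 1.84e-06), which missed the fold threshold, and without NKO_RANKL replicate 2 the log2 fold change was -0.66 and passed it, as 5 rather than 3 factors were then called lower. The higher genes included Irf8 and Bcl6, which are known as brakes on osteoclast formation. Irf8 was 85.03 and 87.2 CPM in WT_RANKL and 140.3 and 148 CPM in NKO_RANKL (0.74 ± 0.062, adjusted p = 2.20e-15) and Bcl6 was 57.95 and 56.5 CPM in WT_RANKL and 77.99 and 95.3 CPM in NKO_RANKL (0.59 ± 0.073, adjusted p = 1.51e-09). Id2, an inhibitor of helix-loop-helix factors, was 86.99 and 91.7 CPM in WT_RANKL and 225 and 246 CPM in NKO_RANKL (1.40 ± 0.089, adjusted p = 4.21e-11). In each of these 3 genes the lower NKO library exceeded the higher WT library.

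Genes of fusion and bone resorption did not move together. Of 22 tested, 4 were called higher and 2 lower (median log2 fold change 0.03), and both lower genes encode the membrane proteins of cell fusion. Dcstamp (NM_001289506, chromosome 15, 39745930 to 39760938, plus strand) was 17.99 and 16.9 CPM in WT_RANKL and 7.77 and 7.69 CPM in NKO_RANKL (-1.17 ± 0.15, adjusted p = 1.71e-09). Ocstamp was weak, at 3.2 and 4.12 CPM in WT_RANKL and 1.27 and 2.02 CPM in NKO_RANKL (-1.16 ± 0.35, adjusted p = 0.00738), and it was no longer called without WT_RANKL replicate 2 (-0.98, adjusted p = 0.0798) or without NKO_RANKL replicate 1 (-0.85, adjusted p = 0.141). In contrast, Ctsk, the collagen-cleaving cathepsin of osteoclasts, was 23.8 and 24.3 CPM in WT_RANKL and 46.3 and 43.8 CPM in NKO_RANKL (0.91 ± 0.088, adjusted p = 5.98e-13), and Itgb3, the integrin chain of the sealing zone, was 73.1 and 74.01 CPM in WT_RANKL and 112 and 128 CPM in NKO_RANKL (0.71 ± 0.083, adjusted p = 1.37e-09), both higher in NKO. Mmp9, a gelatinase, was 95.6 and 90.5 CPM in WT_RANKL and 136 and 250.2 CPM in NKO_RANKL (1.05 ± 0.21, adjusted p = 0.00145), and its call rested on NKO_RANKL replicate 2, without which the log2 fold change was 0.55. In a fit of the 4 RANKL libraries alone Mmp9 was not called either (1.04, adjusted p = 0.223). Tspan7 was also called, with 3 and 0 counts in WT_RANKL and 6 and 5 counts in NKO_RANKL, which is too close to the limit of detection for a fold change. The count of 4 higher genes was 2 without NKO_RANKL replicate 2 and also in the fit of the 4 RANKL libraries. Acp5, the tartrate-resistant acid phosphatase, was 47.5 and 45.1 CPM in WT_RANKL and 49.3 and 57.7 CPM in NKO_RANKL and was not called. Of 19 tested subunits of the vacuolar proton pump, with which osteoclasts acidify bone, none was called by edgeR in either direction, with log2 fold changes from -0.23 to 0.34. At an unadjusted p below 0.05, 9 were higher and 2 lower, and DESeq2 called none either.

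NF-κB subunits and inhibitors were lower more often than higher. Of 16 tested, 4 were called lower and 1 higher (median log2 fold change -0.33), and on the adjusted p alone 12 were lower and 2 higher. Besides Nfkb2 and Relb, these were Nfkbie, which encodes the inhibitor IκBε and was 67.4 and 70.8 CPM in WT_RANKL and 41.03 and 43.7 CPM in NKO_RANKL (-0.71 ± 0.072, adjusted p = 2.73e-12), and Bcl3, a nuclear IκB family member, at 46.8 and 43.9 CPM in WT_RANKL and 25.4 and 30.9 CPM in NKO_RANKL (-0.70 ± 0.23, adjusted p = 0.0341). Tnfaip3, which encodes the feedback inhibitor A20, was higher, at 81.5 and 76.4 CPM in WT_RANKL and 121 and 127 CPM in NKO_RANKL (0.65 ± 0.06, adjusted p = 1.04e-13). The count of lower members was 2 without NKO_RANKL replicate 1. Traf1, an adaptor gene that NF-κB induces and that was among the 12 largest called decreases of genes with at least 5 CPM in a RANKL group, was 89.3 and 91.4 CPM in WT_RANKL and 15.1 and 12.96 CPM in NKO_RANKL (-2.68 ± 0.088, adjusted p = 1.22e-33).

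The DNA just upstream of these genes was examined for letters resembling the binding motifs of NF-κB (GGG and TTCC with any 3 bases between them), AP-1 (TGANTCA), E2F (TTTNGCGC) and the sterol-responsive factor SREBP (TCACNCCAC), read on both strands. RefSeq promoters of build GRCm38.p6, which run from 250 bases before to 50 bases after the start site, could be matched to 10198 of the 13407 genes, and the motifs were chosen after the expression values were seen. The NF-κB letters were found in 6.44% of these promoters, in 6.54% of those of genes called higher and in 7.73% of those of genes called lower. They were in 7 of 13 promoters of NF-κB subunits and inhibitors and in 4 of 9 promoters of CXC chemokines. The promoters of Nfkb2, Cxcl2 and Cxcl3 are shown because the genes moved in opposite directions while each holds these letters, printed in capitals where a match lies on either strand, with overlapping matches joined.
Nfkb2 (chr19:46305445-46305744, plus strand): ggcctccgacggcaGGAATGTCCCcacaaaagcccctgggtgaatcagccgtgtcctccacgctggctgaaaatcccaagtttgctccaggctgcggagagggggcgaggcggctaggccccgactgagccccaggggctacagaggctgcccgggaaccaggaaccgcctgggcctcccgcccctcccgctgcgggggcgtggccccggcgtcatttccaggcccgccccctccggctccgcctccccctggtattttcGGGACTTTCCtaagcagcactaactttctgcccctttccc
Cxcl2 (chr5:90903649-90903948, plus strand): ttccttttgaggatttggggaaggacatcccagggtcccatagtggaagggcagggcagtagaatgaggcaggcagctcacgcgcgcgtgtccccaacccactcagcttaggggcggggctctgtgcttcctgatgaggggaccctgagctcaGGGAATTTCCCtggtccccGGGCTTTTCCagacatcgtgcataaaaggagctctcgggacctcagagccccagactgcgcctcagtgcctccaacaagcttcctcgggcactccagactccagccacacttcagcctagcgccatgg
Cxcl3 (chr5:90785851-90786150, plus strand): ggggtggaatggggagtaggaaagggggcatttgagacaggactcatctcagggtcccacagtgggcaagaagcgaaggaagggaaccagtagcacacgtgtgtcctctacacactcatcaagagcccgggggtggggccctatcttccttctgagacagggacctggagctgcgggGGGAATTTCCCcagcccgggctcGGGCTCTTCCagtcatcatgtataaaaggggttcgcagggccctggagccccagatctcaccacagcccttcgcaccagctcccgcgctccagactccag
Nfkb2, with 2 matches, was lower in NKO_RANKL, whereas Cxcl2 and Cxcl3, with 3 matches each, were higher. In Cxcl2 and Cxcl3, 2 of the 3 matches overlap on opposite strands, so each of the 3 promoters holds 2 separate stretches. A match is a description of letters and not a binding site.

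Cell division genes had the largest share of called members among the 28 gene lists, and they were lower. Of 38 tested genes of DNA replication and mitosis, 34 were called lower and none higher, against 6.99% and 6.21% of all genes, with a median log2 fold change of -1.36 and no member above -0.02. DESeq2 called 34 lower and none higher, and none was higher at an unadjusted p below 0.05. Leaving out any single RANKL library left 33 to 35 of them lower. Ccne2, which encodes a cyclin that starts DNA synthesis, was 69.9 and 71.01 CPM in WT_RANKL and 18.1 and 12.4 CPM in NKO_RANKL (-2.20 ± 0.13, adjusted p = 2.38e-21), and Ccne1 was 31.4 and 36.5 CPM in WT_RANKL and 8.77 and 6.28 CPM in NKO_RANKL (-2.16 ± 0.14, adjusted p = 8.85e-20). Rrm2, the regulated subunit of ribonucleotide reductase, was 123 and 130.1 CPM in WT_RANKL and 35.3 and 23.99 CPM in NKO_RANKL (-2.08 ± 0.15, adjusted p = 2.03e-09), and the helicase gene Mcm5 was 212 and 204 CPM in WT_RANKL and 74.3 and 53.4 CPM in NKO_RANKL (-1.70 ± 0.11, adjusted p = 3.13e-10). Mki67, the proliferation antigen of the nucleus, was 221 and 239 CPM in WT_RANKL and 80.97 and 64.8 CPM in NKO_RANKL (-1.65 ± 0.083, adjusted p = 3.61e-16). In these 5 genes NKO_RANKL replicate 2 was the lowest library, and both NKO libraries were below both WT libraries.

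The decrease covered the licensing helicase (Mcm2 to Mcm7, from -1.70 for Mcm5 to -1.04 for Mcm4), E2F factors (E2f1 -1.03, E2f2 -0.92, E2f7 -2.08 and E2f8 -1.97), nucleotide synthesis (Tyms -2.05 and Tk1 -1.89) and mitotic genes. Among the called genes it was smallest for the mitotic regulators Plk1 (-0.79) and Cdc20 (-0.60), whereas the mitotic kinase gene Bub1 was at -2.06. The 4 members that were not called were named after their values were seen. Pcna, the sliding clamp of DNA polymerase, was 214 and 211 CPM in WT_RANKL and 208 and 207 CPM in NKO_RANKL (-0.03 ± 0.055, adjusted p = 0.675), a difference smaller than its standard error. Ccnb2 and Cenpa, both mitotic genes, had log2 fold changes of -0.02 and -0.04, and Cdt1, a licensing factor, was at -0.56, below the fold threshold. Several of these 12 largest decreases also encode proteins of the dividing cell, among them Mybl2 (-2.53), a transcription factor of the cell cycle, Fancd2 (-2.38), which acts in repair of crosslinked DNA, and Kntc1 (-2.33), a component of the kinetochore.

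Of the 12 groups of the table, WT_RANKL had the highest mean level in 35 of the 38 genes. Mcm5 averaged 208 ± 5.89 CPM there (SD, n = 2), 63.8 ± 14.8 CPM in NKO_RANKL, 19.8 ± 3.76 CPM in WT_Veh and 17.03 ± 0.838 CPM in NKO_Veh. Ccne2 averaged 70.4, 15.2, 6.76 and 4.32 CPM in the same order. In 37 of the 38 genes the NKO_RANKL mean lay between that of WT_RANKL and those of both vehicle groups, which differ in date and hours. The share of all genes with either ordering was not counted, so the counts of 35 and 37 have no background. Under vehicle, 10 of the 38 genes were called lower in NKO (background 3.8%) with a median of -0.41. The difference between the genotype effects was itself called for 30 genes, all more negative under RANKL.

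The E2F letters TTTNGCGC were found in 2.41% of all promoters examined, in 45 of 686 promoters (6.56%) of genes called lower, in 4 of 596 (0.671%) of genes called higher, and in 7 of 30 promoters of the replication and mitosis genes. Those of the helicase genes Mcm5 and Mcm6 are shown with the matches in capitals.
Mcm5 (chr8:75109259-75109558, plus strand): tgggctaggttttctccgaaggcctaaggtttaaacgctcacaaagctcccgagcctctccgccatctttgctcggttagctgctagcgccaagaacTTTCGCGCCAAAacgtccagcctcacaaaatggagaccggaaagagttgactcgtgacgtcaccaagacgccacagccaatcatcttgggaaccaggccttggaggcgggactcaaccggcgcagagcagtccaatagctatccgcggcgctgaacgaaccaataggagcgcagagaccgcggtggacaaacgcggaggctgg
Mcm6 (chr1:128359656-128359955, minus strand): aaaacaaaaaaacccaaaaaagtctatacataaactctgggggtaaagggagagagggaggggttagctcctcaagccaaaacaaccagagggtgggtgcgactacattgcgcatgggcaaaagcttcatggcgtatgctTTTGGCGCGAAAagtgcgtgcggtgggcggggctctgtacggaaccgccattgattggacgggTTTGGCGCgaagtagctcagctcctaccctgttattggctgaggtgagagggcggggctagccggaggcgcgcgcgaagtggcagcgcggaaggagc
In Mcm5 the 2 matches read on opposite strands overlap, and Mcm6 holds such a pair and a further match nearer to the start site. Mcm6 was 403 and 395 CPM in WT_RANKL and 194 and 150.04 CPM in NKO_RANKL (-1.21 ± 0.083, adjusted p = 1.23e-10).

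Chemokine genes moved the other way. Of 14 tested CC chemokine genes, 9 were called higher and none lower, with a median log2 fold change of 1.93. DESeq2 called the same number in each direction. Ccl7 (NM_013654, chromosome 11, 82045712 to 82047523, plus strand), a monocyte attractant, was 6.41 and 10.4 CPM in WT_RANKL and 106 and 95.2 CPM in NKO_RANKL (3.59 ± 0.17, adjusted p = 4.40e-10), and its neighbour Ccl2 was 20.8 and 30.97 CPM in WT_RANKL and 205 and 166 CPM in NKO_RANKL (2.85 ± 0.22, adjusted p = 1.76e-07). Ccl6 was 51.8 and 54.5 CPM in WT_RANKL and 404 and 544 CPM in NKO_RANKL (3.15 ± 0.13, adjusted p = 1.37e-10), and Ccl9 (305 and 325 CPM in WT_RANKL and 1159 and 1204 CPM in NKO_RANKL, 1.91 ± 0.058, adjusted p = 1.65e-34) was the most abundant of them. In each, both NKO libraries were several times above both WT libraries. Ccl12 (3.42), Ccl24 (2.03), Ccl8 (1.95), Ccl4 (1.20) and Ccl3 (0.91) rose as well, and Ccl12 rested on few counts (3 and 7 counts in WT_RANKL and 45 and 33 counts in NKO_RANKL). The CC genes are close paralogs, and reads that the counting splits between them are uncertain.

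Among 12 tested CXC chemokine genes, 8 were called higher and 1 lower (median 1.38). The neutrophil attractants Cxcl3 (4.71 and 5.3 CPM in WT_RANKL and 25.2 and 27.8 CPM in NKO_RANKL, 2.40 ± 0.20, adjusted p = 7.10e-15), Cxcl2 (2.62 and 5.09 CPM in WT_RANKL and 16.6 and 17.01 CPM in NKO_RANKL, 2.14 ± 0.27, adjusted p = 1.43e-05) and Cxcl1 (2.42) rose. Pf4, a chemokine of platelets and macrophages, was the most abundant, at 333 and 323 CPM in WT_RANKL and 845 and 824 CPM in NKO_RANKL (1.35 ± 0.053, adjusted p = 1.04e-29), followed by Ppbp (0.89). The exception was Cxcl10, which interferons induce and which fell from 42.2 and 34.9 CPM to 18.1 and 15.2 CPM (-1.21 ± 0.23, adjusted p = 0.00122). Receptors for such signals rose in part, with 6 of 13 called higher and 2 lower. Ccr1 was 38.98 and 35.8 CPM in WT_RANKL and 126 and 121 CPM in NKO_RANKL (1.72 ± 0.10, adjusted p = 4.64e-12), and the complement receptor C5ar1 was 529 and 528 CPM in WT_RANKL and 1018 and 1195 CPM in NKO_RANKL (1.07 ± 0.055, adjusted p = 5.14e-24). Cx3cr1, the fractalkine receptor of monocytes and osteoclast precursors, was lower, at 99.1 and 117 CPM in WT_RANKL and 70.3 and 50.3 CPM in NKO_RANKL (-0.83 ± 0.15, adjusted p = 2.77e-04). Cxcr3 was the other lower receptor (-0.89). The count of lower receptors was 1 without either WT library or without NKO_RANKL replicate 2, and 0 in the fit of the 4 RANKL libraries.

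Of 27 tested cytokine and growth factor genes, 9 were called higher and 1 lower. Spp1, which encodes the bone matrix protein osteopontin, was 2377 and 2529.96 CPM in WT_RANKL and 6242 and 4823 CPM in NKO_RANKL (1.17 ± 0.14, adjusted p = 1.33e-05), and Tnf was 38.0 and 42.3 CPM in WT_RANKL and 64.98 and 67.3 CPM in NKO_RANKL (0.72 ± 0.079, adjusted p = 5.48e-11). Csf1, encoding M-CSF, was 13.5 and 17.02 CPM in WT_RANKL and 28.4 and 35.4 CPM in NKO_RANKL (1.06 ± 0.13, adjusted p = 1.37e-07), and Il10 was 1.9 and 2.09 CPM in WT_RANKL and 5.51 and 5.57 CPM in NKO_RANKL (1.47 ± 0.22, adjusted p = 1.26e-07). All 4 were higher in both NKO libraries than in either WT library. Lif, a cytokine of the IL6 family, rose from a low level (0.262 and 0.628 CPM in WT_RANKL and 2.35 and 3.14 CPM in NKO_RANKL, 2.61 ± 0.45, adjusted p = 3.47e-06). Pdgfb, a growth factor made by preosteoclasts, was the lower gene, at 183 and 178 CPM in WT_RANKL and 109 and 109.7 CPM in NKO_RANKL (-0.72 ± 0.062, adjusted p = 8.36e-15).

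**Figure D2:**
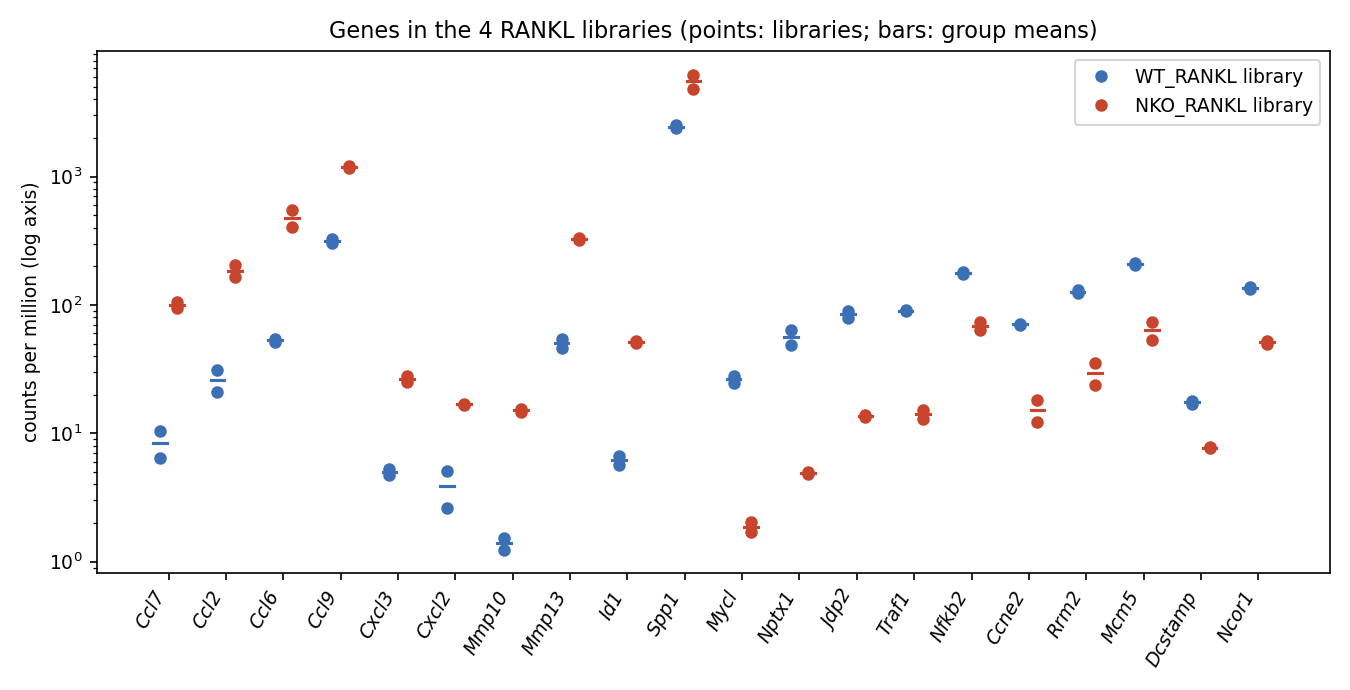
CPM (log axis) of 20 genes in each WT_RANKL (blue) and NKO_RANKL (red) library, with bars at the group means (n = 2). Chemokine, Mmp10, Mmp13, Id1 and Spp1 points lie higher in NKO_RANKL, and Mycl, Nptx1, Jdp2, Traf1, Nfkb2, Ccne2, Rrm2, Mcm5, Dcstamp and Ncor1 points lie lower, without overlap of the genotypes.

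Matrix metalloproteinases and their inhibitors rose or did not pass the test. Of 18 tested, 9 were called higher and none lower (median 0.69). Mmp10 (NM_019471, chromosome 9, 7502342 to 7510242, plus strand), a stromelysin, was 1.24 and 1.53 CPM in WT_RANKL and 15.5 and 14.8 CPM in NKO_RANKL (3.44 ± 0.29, adjusted p = 5.94e-15). The collagenase gene Mmp13 was 45.8 and 54.4 CPM in WT_RANKL and 323 and 331 CPM in NKO_RANKL (2.71 ± 0.13, adjusted p = 6.43e-10), and Mmp12, the macrophage elastase, which was the most abundant, was 1992 and 2173 CPM in WT_RANKL and 3611 and 3545 CPM in NKO_RANKL (0.78 ± 0.056, adjusted p = 8.49e-17). Both NKO libraries were above both WT libraries in all 3. The inhibitors Timp1 (0.65), Timp2 (0.60) and Timp3 (0.99) rose as well. The AP-1 letters TGANTCA occurred in 5.09% of all promoters examined, in 9.9% of those of genes called higher and in 3.79% of those of genes called lower. Those of Mmp10 and Mmp13, genes of the same cluster on chromosome 9 with the largest increases of this list, each hold a single match, shown in capitals.
Mmp10 (chr9:7502092-7502391, plus strand): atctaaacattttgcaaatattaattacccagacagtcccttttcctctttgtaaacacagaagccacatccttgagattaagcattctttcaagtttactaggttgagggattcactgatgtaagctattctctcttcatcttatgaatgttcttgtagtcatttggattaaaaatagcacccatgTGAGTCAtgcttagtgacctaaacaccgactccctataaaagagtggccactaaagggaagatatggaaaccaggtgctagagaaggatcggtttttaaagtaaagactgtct
Mmp13 (chr9:7272264-7272563, plus strand): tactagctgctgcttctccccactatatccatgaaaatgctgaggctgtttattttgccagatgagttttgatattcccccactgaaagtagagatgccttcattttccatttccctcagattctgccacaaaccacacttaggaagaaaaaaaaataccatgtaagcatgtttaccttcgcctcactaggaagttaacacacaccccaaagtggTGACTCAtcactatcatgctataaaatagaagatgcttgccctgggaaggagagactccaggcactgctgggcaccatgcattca
Mmp12 was the only other member of the list with a match, among 14 promoters.

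Of 13 tested cathepsin genes, 7 were called higher and none lower (median 0.60, lowest value 0.17). Ctsl was 2112 and 2244 CPM in WT_RANKL and 3921 and 3905 CPM in NKO_RANKL (0.85 ± 0.052, adjusted p = 1.03e-20) and Ctsd was 8274 and 8195 CPM in WT_RANKL and 12709.9 and 13418 CPM in NKO_RANKL (0.67 ± 0.048, adjusted p = 8.74e-18), both lysosomal proteases of macrophages. Ctsg, a protease of granulocyte precursors, also rose, at 10.5 and 9.28 CPM in WT_RANKL and 21.6 and 20.1 CPM in NKO_RANKL (1.07 ± 0.19, adjusted p = 4.82e-06), beside the granulocyte precursor sums given above.

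Most genes of sterol synthesis were higher in NKO_RANKL. Of 24 tested genes of cholesterol synthesis and uptake, 18 were called higher and none lower, with a median log2 fold change of 0.88 and with 17 to 20 called when single RANKL libraries were left out. No member was below 0.01, and DESeq2 called 18 higher and none lower. Hmgcs1, which makes the precursor HMG-CoA, was 92.7 and 82.7 CPM in WT_RANKL and 193 and 245 CPM in NKO_RANKL (1.32 ± 0.11, adjusted p = 2.45e-07), and Insig1, which holds back this pathway, was 59.6 and 56.5 CPM in WT_RANKL and 122 and 153 CPM in NKO_RANKL (1.24 ± 0.11, adjusted p = 5.32e-08). NKO_RANKL replicate 2 was above replicate 1 in both genes, and both libraries were above WT. Later steps rose too, for instance Sqle (1.12), Cyp51 (1.18) and Sc5d (1.15). Under vehicle, 8 of the 24 genes were called higher and none lower (background 2.4% higher), and 8 had a called difference between the 2 effects, a count that was 3 without WT_Veh replicate 2 or without NKO_RANKL replicate 2. The SREBP letters occurred in 1 of 17 promoters, that of Hmgcs1, against 1.04% of all promoters examined.

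LXR targets, which NCoR is known to repress, were called higher in 8 of 20 cases and never lower (median 0.51). The desaturase genes Scd1 (13.9 and 13.9 CPM in WT_RANKL and 47.2 and 59.02 CPM in NKO_RANKL, 1.93 ± 0.12, adjusted p = 7.43e-17) and Scd2 (141 and 136 CPM in WT_RANKL and 451 and 592 CPM in NKO_RANKL, 1.91 ± 0.10, adjusted p = 3.65e-10) changed most, and reads of these close paralogs may be split between them. Abca1, the cholesterol exporter, was 101 and 96.9 CPM in WT_RANKL and 196 and 234 CPM in NKO_RANKL (1.12 ± 0.089, adjusted p = 1.35e-09), and the lipoprotein gene Apoe was 2711 and 2453 CPM in WT_RANKL and 3776 and 5416 CPM in NKO_RANKL (0.83 ± 0.13, adjusted p = 1.90e-04). Each was above WT in both NKO libraries. Under vehicle, 6 of the 20 LXR targets were called higher and 1 lower (background 2.4% and 3.8%). The difference between the 2 effects was called more positive under RANKL for 4 of them and more negative for 3 (background 7.26% and 6.97%). Genes of lipid uptake and storage called higher were Plin2, the coat protein of lipid droplets (480.4 and 510.1 CPM in WT_RANKL and 1493 and 1458 CPM in NKO_RANKL, 1.58 ± 0.054, adjusted p = 9.08e-33), Fabp5 (0.88) and Cd36 (0.62), which were 3 of 19 tested. Of 15 genes of fatty acid synthesis, 4 were called higher, namely Scd1, Scd2, Fads2 (0.65) and Elovl6 (0.61), and none lower. That count was 2 without NKO_RANKL replicate 2. Ppargc1b, which encodes the coactivator PGC1β, fell from 6.54 and 5.79 CPM to 2.62 and 3.64 CPM (-0.99 ± 0.22, adjusted p = 1.68e-04). It was the single called gene among 14 of mitochondrial biogenesis, where Esrra, the receptor it partners with, was 42.3 and 35.99 CPM in WT_RANKL and 39.5 and 37.7 CPM in NKO_RANKL (-0.02 ± 0.087, adjusted p = 0.877).

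Receptors with which macrophages take up particles and sense microbes were called higher in part. Of 21 scavenger and phagocytic receptors, 10 were called higher and 1 lower (median 0.57). The Fc receptor genes Fcgr3 (222 and 224 CPM in WT_RANKL and 469 and 479.97 CPM in NKO_RANKL, 1.09 ± 0.053, adjusted p = 2.32e-25) and Fcgr1 (114 and 112 CPM in WT_RANKL and 262 and 255 CPM in NKO_RANKL, 1.19 ± 0.14, adjusted p = 1.77e-05) rose, as did Fcgr4 (1.33), Fcgr2b (0.83) and the β-glucan receptor gene Clec7a (177 and 168 CPM in WT_RANKL and 356 and 382 CPM in NKO_RANKL, 1.10 ± 0.06, adjusted p = 7.40e-23). Marco, a scavenger receptor, was lower at 145 and 154 CPM in WT_RANKL and 45.1 and 112 CPM in NKO_RANKL (-0.94 ± 0.30, adjusted p = 0.028), and its call was lost without either WT library, without NKO_RANKL replicate 1, in the fit of the 4 RANKL libraries and with DESeq2. Of 20 Toll-like receptor genes and adaptors, 4 were called higher, among them Cd14 (187 and 218 CPM in WT_RANKL and 454 and 398 CPM in NKO_RANKL, 1.08 ± 0.079, adjusted p = 7.52e-11) and Tlr13 (0.72). Cd86 (1.24) and H2-Aa (0.75) were the 2 of 20 genes of antigen presentation that rose. Arg1, an enzyme that IL4 induces, was 3.2 and 2.23 CPM in WT_RANKL and 11.2 and 16.2 CPM in NKO_RANKL (2.31 ± 0.21, adjusted p = 7.60e-12), and 4 of 16 genes of IL4-type activation were called higher.

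Interferon-stimulated genes gave a result that depended on single libraries. Of 30 tested, 9 were called higher and 1 lower (median 0.36). Ifit3 was 30.2 and 26.8 CPM in WT_RANKL and 60.1 and 70.5 CPM in NKO_RANKL (1.19 ± 0.30, adjusted p = 0.00769), Mx1 was 18.4 and 16.5 CPM in WT_RANKL and 40.2 and 39.3 CPM in NKO_RANKL (1.19 ± 0.26, adjusted p = 0.0032) and Rsad2 was 68.7 and 54.2 CPM in WT_RANKL and 132 and 139 CPM in NKO_RANKL (1.14 ± 0.18, adjusted p = 2.81e-04), all without overlap. The count of higher genes was 3 without WT_RANKL replicate 2 and 4 without NKO_RANKL replicate 2.

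Feedback inhibitors of signalling were called higher in 7 of 24 cases and lower in 1. Dusp6, the phosphatase that restrains ERK, was 34.7 and 32.7 CPM in WT_RANKL and 95.2 and 102 CPM in NKO_RANKL (1.54 ± 0.088, adjusted p = 4.08e-22), and Spry2 (0.83) and Errfi1 (0.82), inhibitors of receptor tyrosine kinase signalling, rose with it. The count of higher genes was 4 without WT_RANKL replicate 2. Socs3 was lower (-0.77 ± 0.26, adjusted p = 0.0375), a call that was lost when any of the 4 RANKL libraries was left out. The AP-1 family genes that were called besides Jdp2 were higher, among them Maf (1.01), Maff (0.99) and Atf3 (252 and 247 CPM in WT_RANKL and 366 and 392 CPM in NKO_RANKL, 0.60 ± 0.054, adjusted p = 4.04e-14), with 4 of 23 higher and 1 lower, and with 7 higher and 5 lower on the adjusted p alone. Semaphorin, plexin and related guidance genes were called lower in 5 of 26 cases and higher in 3, or 1 without NKO_RANKL replicate 2. The 5 lower genes included Nptx1 and Nptxr, which are neither semaphorin nor plexin genes. This list was chosen with earlier results of these data known, so its lean toward lower calls is no independent result. Nptx1 (NM_008730, chromosome 11, 119538719 to 119547820, minus strand), a secreted pentraxin known from synapses, fell from 63.4 and 49.1 CPM to 4.97 and 4.86 CPM (-3.52 ± 0.27, adjusted p = 1.36e-07), and Nptxr, its receptor, fell from 9.61 and 9.98 CPM to 3.16 and 2.43 CPM (-1.79 ± 0.23, adjusted p = 3.97e-09). Sema4d, which osteoclasts use to restrain osteoblasts, was 559 and 538 CPM in WT_RANKL and 326 and 310.5 CPM in NKO_RANKL (-0.79 ± 0.053, adjusted p = 4.75e-19). Nrp2 fell (665 and 638 CPM in WT_RANKL and 328 and 393 CPM in NKO_RANKL, -0.85 ± 0.061, adjusted p = 1.02e-16) while the related semaphorin receptor gene Nrp1 rose (461 and 421 CPM in WT_RANKL and 702 and 785 CPM in NKO_RANKL, 0.75 ± 0.058, adjusted p = 3.62e-16). Of 33 genes of glycolysis and hypoxia, only Epas1 (1.03) was called higher and none lower, although 11 were lower and 8 higher on the adjusted p alone, and 2 were called lower without WT_RANKL replicate 2 or without NKO_RANKL replicate 2.

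**Figure D3:**
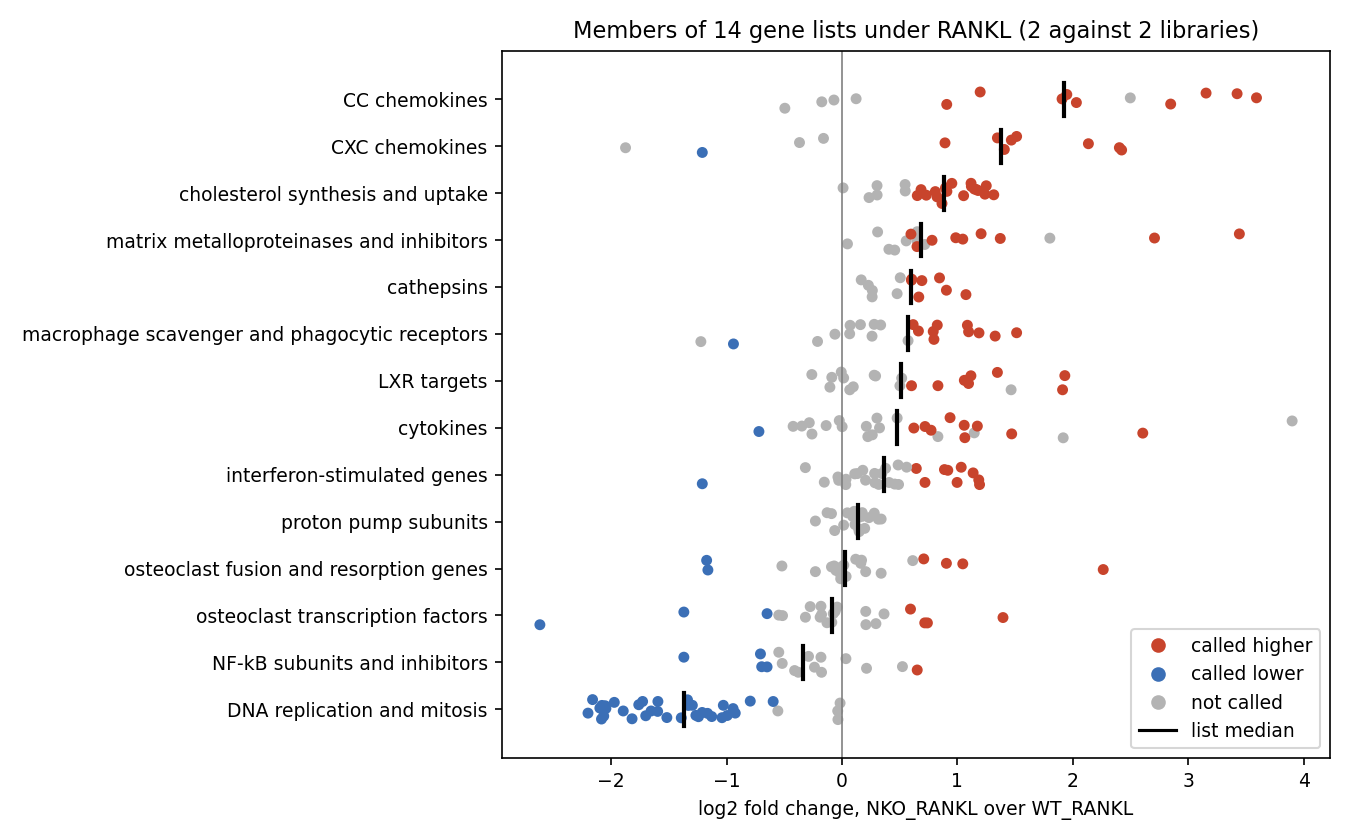
Log2 fold change of NKO_RANKL over WT_RANKL for each tested member of 14 gene lists, with called members in red (higher) or blue (lower), others in grey, and a black line at each list's median. The replication and mitosis genes lie to the left with a median of -1.36, and the CC chemokines lie to the right with a median of 1.93.

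The largest called changes among genes with at least 5 CPM in a RANKL group were a mixed set. Mycl (NM_008506, chromosome 4, 122995931 to 123002480, plus strand), a MYC family gene, had the largest decrease of them, with 431 and 355 counts in WT_RANKL and 19 and 20 counts in NKO_RANKL (-3.82 ± 0.20, adjusted p = 1.09e-23). It belonged to a list of 12 MYC and MAX network genes in which only Mxd1 (-0.70) was also called, lower as well. Akap6, an anchoring protein for protein kinase A, was 8.76 and 8.3 CPM in WT_RANKL and 0.813 and 0.81 CPM in NKO_RANKL (-3.38 ± 0.37, adjusted p = 3.90e-11), and Pgf, encoding placental growth factor, was 10.99 and 13.4 CPM in WT_RANKL and 1.63 and 1.11 CPM in NKO_RANKL (-3.13 ± 0.30, adjusted p = 4.73e-13). Both were near 1 CPM in NKO_RANKL. Tcf19 (-2.46), D17H6S56E-5 (-2.32) and Abcg3 (-2.32) made up the rest of the 12 largest decreases. Among the largest increases, Id1, an inhibitor of helix-loop-helix factors and a known target of BMP signalling, was 5.62 and 6.7 CPM in WT_RANKL and 50.9 and 52.6 CPM in NKO_RANKL (3.07 ± 0.21, adjusted p = 1.27e-12), and Heyl, a repressor of the Notch pathway, was 1.31 and 1.46 CPM in WT_RANKL and 5.78 and 6.78 CPM in NKO_RANKL (2.17 ± 0.36, adjusted p = 1.64e-06). Has2, which makes hyaluronan, was 2.09 and 1.33 CPM in WT_RANKL and 6.96 and 7.998 CPM in NKO_RANKL (2.11 ± 0.34, adjusted p = 9.48e-07), and Smpd3, a neutral sphingomyelinase, was 1.11 and 1.12 CPM in WT_RANKL and 3.52 and 8.91 CPM in NKO_RANKL (2.44 ± 0.42, adjusted p = 1.21e-04) with the widest relative spread between NKO libraries of the 12.

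An interaction term tested whether the genotype effect was the same under RANKL as under vehicle. Date stamp, hours of treatment and RANKL change together between these conditions and cannot be told apart, whereas genotypes share a stamp within each. The effect was called more positive under RANKL for 7.26% of genes and more negative for 6.97%, 14.2% in all, against 13.2% called in either direction for the RANKL effect itself. Of the genes called higher at RANKL, 80 were called higher under vehicle as well and 112 were called lower there, and of the genes called lower at RANKL, 94 were called lower under vehicle and 21 higher. The remaining 641 higher and 822 lower genes were not called under vehicle. Over all genes tested, 2.4% were called higher and 3.8% lower under vehicle, so most genes of any kind were not called there.

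Dcstamp was among the genes whose effect changed sign. It was higher in NKO under vehicle (0.93 ± 0.13, adjusted p = 3.98e-08), averaging 19.3 ± 0.154 CPM against 10.1 ± 2.17 CPM, and lower under RANKL, and the difference was -2.11 ± 0.20 (adjusted p = 2.81e-13). Its log2 fold changes were 2.02 under poly I:C, 1.31 under IFNβ and 1.18 under IL4, so that RANKL was the condition with a negative value among the 5 in which both genotypes shared a date stamp. Acp5 was higher in NKO under vehicle (1.58 ± 0.089, adjusted p = 7.50e-20) and not called under RANKL, with a difference of -1.37 ± 0.13 (adjusted p = 1.74e-12). Itgb3 and Mmp9 were higher in both, by less under RANKL (differences of -0.68 and -2.01, adjusted p = 2.07e-04 and 1.48e-04). Ctsk had effects of 1.11 and 0.91, and the difference was not called (adjusted p = 0.21). Over the list of fusion and resorption genes, 8 of 22 were called higher and none lower under vehicle, and 6 had a called difference, each more negative under RANKL.

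Jdp2 and Nfkb2 were called lower under RANKL and were not called under vehicle. Jdp2 averaged 3.09 ± 0.376 CPM in WT_Veh and 2.95 ± 0.016 CPM in NKO_Veh, and Nfkb2 73.1 ± 2.68 and 71.6 ± 0.178 CPM. The differences between the effects were -2.55 ± 0.26 (adjusted p = 5.60e-12) and -1.34 ± 0.089 (adjusted p = 7.91e-19). Jdp2 was called lower under poly I:C as well (-0.90). Traf1 was called lower under vehicle too (-0.70), by less than under RANKL, with a difference of -1.98 ± 0.16 (adjusted p = 3.86e-15).

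Chemokine genes gave the opposite sign. Of the 14 CC genes, 9 had a called difference, each more positive under RANKL, and of 12 CXC genes 6 did. These 6 included Cxcl3, whose vehicle counts were close to 0 and whose difference was -0.43 without WT_Veh replicate 2. The difference of Ccl7 kept its call in all alternatives run. Ccl7 had an effect of -1.25 ± 0.58 under vehicle (adjusted p = 0.166), where it averaged 2.13 CPM in WT and 0.872 CPM in NKO, and the difference from RANKL was 4.84 ± 0.62 (adjusted p = 3.65e-05). Ccl6 rose in both, by 2.17 and 3.15. Il10 was lower in NKO under vehicle (-2.94 ± 0.40, adjusted p = 4.17e-08) and higher under RANKL. Of the 30 interferon-stimulated genes, 23 were called lower and none higher under vehicle, and 25 had a called difference, all more positive under RANKL, a count that was 14 without WT_Veh replicate 2 and 5 in a fit of the 8 libraries alone. The WT_Veh replicates differed more from each other (chi-square per degree of freedom 5.87) than the RANKL replicates did.

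**Figure D4:**
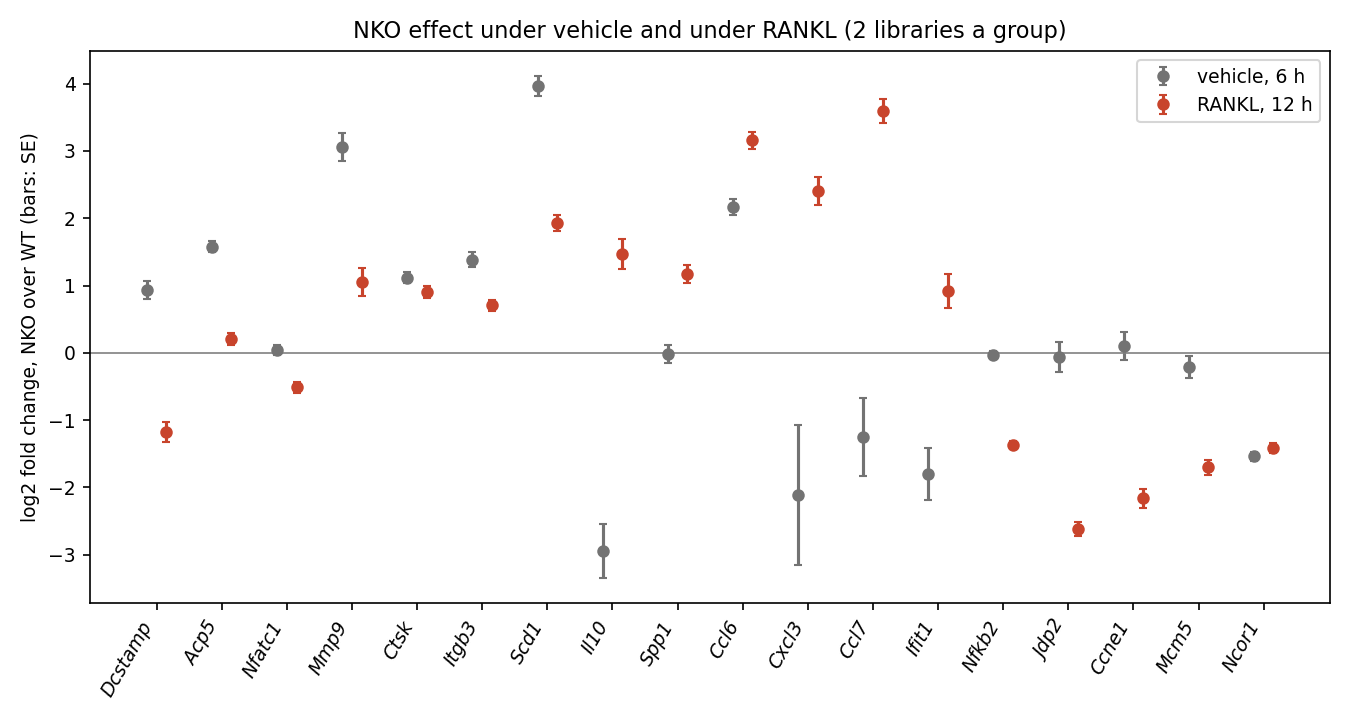
Log2 fold change of NKO over WT with its SE for 18 genes under vehicle at 6 h (grey) and under RANKL at 12 h (red). Dcstamp, Il10 and Ifit1 have effects of opposite sign in the 2 conditions, whereas Ncor1 is lower in both (-1.54 and -1.41).

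Across the conditions with 1 date stamp for both genotypes, 508 of the genes called higher at RANKL (61.0%) and 720 of those called lower (76.8%) were in no call of vehicle, poly I:C, IFNβ or IL4, which does not show that their effects differed. Genes called there made up 6.21% of all genes under vehicle (2.4% higher, 3.8% lower), 5.93% under poly I:C (3.01% and 2.92%), 3.8% under IFNβ (1.86% and 1.94%) and 4.24% under IL4 (1.9% and 2.33%). By these rates most of all genes tested were in none of those calls either, so 61.0% and 76.8% are no measure of specificity for RANKL. KLA, where the genotypes carried different date stamps and 40% of genes were called (21% higher and 19% lower), was left out. By contrast, 35 genes were called higher and 9 lower in all 5 conditions. Of these, the 10 with the largest mean effect were Scd1, Mmp9, Siglecf, Ccl6, Scd2, Vsig8, Trim29, Il1rl2 and Ccr1, which were higher, and Abcg3, which was lower. Siglecf, a sialic acid receptor, was 2.35 and 2.51 CPM in WT_RANKL and 4.88 and 6.07 CPM in NKO_RANKL (1.16 ± 0.24, adjusted p = 9.39e-05), against a log2 fold change of 2.86 under vehicle. Il1rl2, the receptor for IL36, was 5.89 and 6.56 CPM in WT_RANKL and 16.5 and 14.4 CPM in NKO_RANKL (1.32 ± 0.17, adjusted p = 3.67e-09) and had an effect of 1.59 under vehicle. Vsig8 and Trim29 were below 4 CPM in every RANKL library, and both lost their RANKL call without 1 of the WT libraries (Vsig8 0.97, Trim29 0.88) and without 1 of the NKO libraries (Vsig8 0.45, Trim29 1.21).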

How the data were processed

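RNA-seq counts were analysed from the table that holds the NCoR experiment (24 libraries, 12 groups of 2). Per the file headers, the values are raw counts that HOMER gave over the exons of each RefSeq transcript, without normalization and with 1 transcript kept per gene, from reads that the authors aligned to mm10 with STAR (versions are not given in the sources used here). The submitters' processing notes also name DESeq2. The header names no strand option, whereas the study's methods describe strand-specific reads, so counts of overlapping genes are uncertain. The other 3 count tables were not used here.

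Genes were filtered with filterByExpr, scaled with TMM and fitted over all 24 libraries with edgeR 4.0.16 in R 4.3.3 (robust quasi-likelihood, 2-sided F-test, Benjamini-Hochberg over 13407 genes). SEs are those implied by the F statistic, and the common biological coefficient of variation of the fit was 0.0421. With 2 libraries against 2, exact permutation of 1 gene's values can reach no p under 0.333, and the fit therefore borrows its spread from all genes and groups. Calls needed an adjusted p under 0.05 with a fold change over 1.5. The pipeline was tested on simulated data.

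Library depth was 8.45 M to 12.1 M counts. Replicate numbers did not pair the samples (correlation of the deviations -0.07 at RANKL and 0.02 at vehicle). The members, the 28 gene lists and the 10 marker lists were chosen with earlier results of these data known. Genes named were Ncor1, Hdac3 and Lyz2, the 12 largest called changes in each direction with a mean of at least 5 CPM in a RANKL group, called list members and a fixed set of osteoclast genes, the 6 largest called interaction terms in each direction, and up to 10 genes called in the same direction in 5 conditions. Some members of the lists are counted but not reported here by name. Any other gene was chosen with its values known, as stated beside it. Alternatives were DESeq2's size factors, DESeq2 1.42.0, other filters on low counts, fewer groups in the fit, a replicate block, each library left out and no fold threshold. Promoters came from RefSeq (GRCm38.p6), at the annotated start nearest to and within 1000 bases of the counted transcript's start. Figures were drawn with matplotlib in Python.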

Additional observations from a re-analysis of the deposited data

Results flagged for a closer look

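The genotype effect differed between RANKL and vehicle, by the interaction term in edgeR with p-values adjusted by the Benjamini-Hochberg method, for 974 genes whose effect was more positive under RANKL and 934 whose effect was more negative. The 6 largest positive differences among genes with at least 5 CPM in a compared group were those of Saa3 (5.71 ± 1.34 on the log2 scale, adjusted p = 0.00584), Ccl7 (4.84 ± 0.62, adjusted p = 3.65e-05), Ltb4r1 (4.73 ± 1.74, adjusted p = 0.0346), Cxcl3 (4.51 ± 1.06, adjusted p = 6.62e-04), Ifi205 (4.46 ± 1.08, adjusted p = 0.00571) and Il10 (4.41 ± 0.45, adjusted p = 9.17e-12). Ltb4r1 and Cxcl3 averaged 0 and 0.0644 CPM in NKO_Veh and 0.205 and 0.308 CPM in WT_Veh, so their fitted differences are no bound on the true size. Without WT_Veh replicate 2, the calls of Saa3 (2.70), Ltb4r1 (3.26), Cxcl3 (-0.43) and Ifi205 (2.79) were lost. Ltb4r1 was also not called without either NKO_Veh library or against the mean effect of 4 conditions, nor Saa3 in the fit of the compared groups alone. Ccl7 and Il10 kept their calls in all alternatives run.

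The 6 largest negative differences were those of Mycl (-4.27 ± 1.05, adjusted p = 0.00111), Nptx1 (-2.86 ± 0.35, adjusted p = 2.92e-05), Jdp2 (-2.55 ± 0.26, adjusted p = 5.60e-12), Gprc5b (-2.51 ± 0.22, adjusted p = 2.63e-14), Lims2 (-2.39 ± 0.60, adjusted p = 0.00134) and Wdr90 (-2.34 ± 0.31, adjusted p = 2.17e-08). Mycl averaged 0.137 and 0.186 CPM under vehicle, at or under the limit of detection, and its call was lost without NKO_Veh replicate 2 (-3.89, adjusted p = 0.0777). Gprc5b, an orphan receptor gene, was higher in NKO under vehicle (72.97 ± 2.79 against 29.6 ± 2.78 CPM) and lower under RANKL (3.04 ± 0.432 against 7.06 ± 0.0824 CPM, SD, n = 2). Date stamp and hours changed together with RANKL, and their part in these differences was not tested.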

How the results depend on the processing

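The counts of called genes stayed within 1.5 times of those reported under every alternative but the call without a fold threshold, which gave 2301 higher and 2293 lower genes at RANKL and 3827 with a called difference between the effects. Leaving out single RANKL libraries gave 605 to 796 higher and 856 to 905 lower genes at RANKL and 1708 to 1858 genes with a called difference, where the lone sample of a group was assumed to vary like the others. DESeq2 shared 690 of the higher and 837 of the lower calls. The replicate block gave 810 higher, 922 lower and 1887 genes with a called difference. Pairing by replicate number was not established here, so this fit is given only as an alternative. Leaving out single vehicle libraries, added after seeing the data, gave 1738 to 1920, and the mean effect of vehicle, poly I:C, IFNβ and IL4 as the reference gave 1883.

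Of 58 values of named genes, 46 kept their side of the threshold, and where called their direction, in every alternative. Values near 0 that were not called could change sign when a RANKL library was left out. Among them were Hdac3 (-0.05 to 0.07), Tnfrsf11a (-0.02 to 0.09), Traf6 (-0.03 to 0.17) and Esrra (-0.14 to 0.10). The single reversal of a called value was the difference for Cxcl3, -0.43 without WT_Veh replicate 2 against up to 5.48 without replicate 1, where vehicle counts are close to 0. With 2 libraries a group, changes near 1.5-fold and genes under about 5 CPM are the least certain.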
